A study of Mus musculus with 18 samples.

Results

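Of the 5455 named genes listed in the authors' comparisons, 5 genes of antigen presentation by MHC class I were followed through 6 groups of RAW264.7 cells, a mouse macrophage-like line. They were Nlrc5, Tapbpl, H2-Q4, H2-Q7 and H2-T10, taken by gene name with every transcript entry listed under it, which gave 9 entries and 55 rows. The 4 groups of construct cells carried a pINDUCER20 lentivirus (p2080) that expresses mouse CITED1 when doxycycline is added; CITED1 is a nuclear protein that regulates transcription through partner proteins. They received doxycycline with interferon-gamma (both), interferon-gamma alone, doxycycline alone, or neither. The other 2 groups were parental RAW264.7 cells with doxycycline or untreated. Doxycycline was used at 100 ng/mL and recombinant murine interferon-gamma at 200 U/mL unless specified otherwise, per the labels. Each group had 3 samples, 18 in all, and the labels do not say whether these were separate cultures or how many clones the construct cells come from. No parental cells with interferon-gamma were analysed here, so every interferon-gamma response below is one of cells that carry the construct.

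MHC class I molecules carry peptides from inside the cell to its surface, where CD8+ T cells read them. Peptides are cut by the proteasome, moved into the endoplasmic reticulum by the TAP transporter and loaded onto a heavy chain that pairs with beta-2-microglobulin. NLRC5 is a NOD-like receptor family protein that acts in the nucleus as the class I transactivator. It is recruited by factors bound to the X and Y boxes of class I promoters and is itself induced by interferon-gamma, the main cytokine that activates macrophages.

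The values are the authors' own comparisons of pairs of groups. A row is listed only at 2-fold or more and a q-value of 0.05 or less, and gives a fold change, a q-value and an FPKM (fragments scaled to transcript length and library size) summed over the pair. The level of each group was rebuilt from the fold change and the sum, so that it is a group value with no SD and no n, and the depth of the libraries is unknown. A gene without a row is not shown to be unchanged. The share of the 5455 listed genes that were called is given as background; these genes had at least 1 call somewhere, so it is not a share of all genes measured.

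The induced gene was at a rebuilt 86.7 FPKM with both treatments, 11.5 with interferon-gamma alone, 168 with doxycycline alone and 0.703 in untreated construct cells. Cited1 was thus also 16.3-fold higher with interferon-gamma alone than in untreated construct cells in the authors' deposited table, and the cells stimulated without inducer did not lack it. Of 10 macrophage markers 6 had a row. Those described here did not share a direction, and the values of Cd68, which also had a row, are not given. Fcgr1 was at 274 FPKM with both treatments, 87.5 with interferon-gamma alone and 14.1 to 17.8 in the groups without it, and Ptprc was at 164 with both treatments, 111 with interferon-gamma alone and 47.7 to 54.9 without it. Spi1 was at 350 FPKM with both treatments, against 151 to 157 in the groups without interferon-gamma. Adgre1 was at 5.03 FPKM with both treatments, 7.10 with interferon-gamma alone and between 12.2 and 32.6 in the groups without it, and Itgam was at 20.0 with both treatments, against 42.4 in untreated construct cells. Neither Spi1 nor Itgam has a level with interferon-gamma alone. Of 5 dendritic cell markers 3 had a row. Clec9a was at 133 FPKM with both treatments and 80.4 with interferon-gamma alone, against 0.0437 in untreated construct cells. Xcr1 was at 17.7 FPKM with both treatments and 6.61 with interferon-gamma alone, against 0.0430 in untreated construct cells. Zbtb46 was at 0.575 FPKM with interferon-gamma alone, against 0.183 in untreated construct cells, and has no level with both treatments. No T cell, B cell, neutrophil, fibroblast or epithelial marker had a row, which leaves their levels unknown. The part of these marker changes in the results below was not tested.

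The interferon-gamma response of construct cells was seen in all 5 genes, and with it the promoters of 2 of them can be set out. H2-Q4 and H2-Q7 are class Ib heavy chain genes of the Q region on chromosome 17, and the 180 bases before their annotated start sites are shown because they are the class I promoters at hand for the genes that moved together. They come from RefSeq, build GRCm38.p6, plus strand, at chr17:35379437-35379616 for H2-Q4 and chr17:35438975-35439154 for H2-Q7. Capitals mark matches, on either strand, to the motifs listed after them, and the last base printed is 1 base before the start site.
H2-Q4: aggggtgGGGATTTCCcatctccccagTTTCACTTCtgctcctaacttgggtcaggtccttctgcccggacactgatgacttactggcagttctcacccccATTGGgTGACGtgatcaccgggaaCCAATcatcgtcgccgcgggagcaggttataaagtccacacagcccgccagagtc
H2-Q7: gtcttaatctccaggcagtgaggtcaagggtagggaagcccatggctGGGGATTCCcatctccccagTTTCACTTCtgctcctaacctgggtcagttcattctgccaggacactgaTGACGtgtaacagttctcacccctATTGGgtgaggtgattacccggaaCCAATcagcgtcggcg

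The kB site, the shortened ISRE and the Y boxes followed each other in the same order in both windows, and the CRE-like match did not. A kB site (GGGNNTTCC), the binding site of NF-kB, began at position -173 in H2-Q4 and at -133 in H2-Q7, counted from the start site as 0. The Y box (ATTGG, or CCAAT on the other strand), which NF-Y binds, occurred in a pair, at -79 and -55 in H2-Q4 and at -40 and -16 in H2-Q7, with 24 bases between the first bases of the pair in each. A CRE-like motif (TGACG), the core of CREB-type sites, is part of the X2 box, which in class I promoters lies upstream of the Y box. In H2-Q7 it began at -64, which is 24 bases before the first Y box. In H2-Q4 no match lay upstream of the Y boxes, and the motif was found at -73, between them, and at 31 after the start site, outside the stretch shown. No interferon-gamma activated site (GAS, TTCNNNGAA) and no full core of the interferon-stimulated response element (ISRE) was found in the 300 bases searched for each gene, which ran from 250 before to 50 after the start site. A shortened ISRE (TTTCNNTTC), a pattern chosen after the windows had been seen, lay at -153 in H2-Q4 and at -113 in H2-Q7. The best local alignment of the windows had 227 identical bases over 276 positions, or 82.2%.

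The shares of promoters that hold each motif differed widely. Of 32851 RefSeq windows of the same length, 37.4% held a Y box, 20.8% a TGACG, 8.30% a GAS, 7.52% the shortened ISRE, 5.82% a kB site and 3.44% the full ISRE core. A Y box together with a kB site was found in 2.25% of windows, and those 2 with the shortened ISRE in 0.158%, or 52 windows. Among 18 genes of the heavy chain list with a window, the trio was found in 6, namely H2-D1, H2-K1, H2-M2, H2-Q4, H2-Q6 and H2-Q7. The shortened ISRE was chosen after the windows of H2-Q4 and H2-Q7 had been seen, and both genes are among the 6. The shares of the trio are therefore a description and cannot serve as a test. Windows were found for H2-Q4 and H2-Q7 only among the 5 genes.

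**Figure D1:**
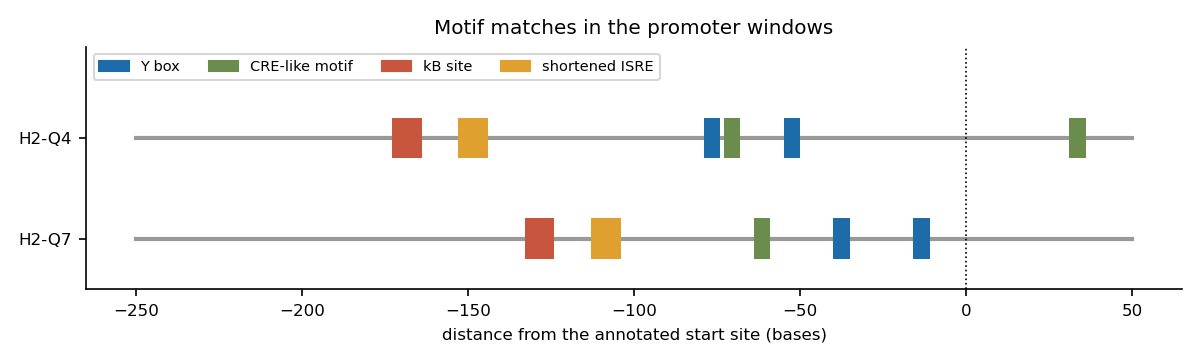
Motif matches in the promoter windows of H2-Q4 and H2-Q7. The horizontal axis is the distance in bases from the annotated start site (dotted line at 0), and each box covers the bases of 1 match in the colour of its motif. The kB site, the shortened ISRE and the pair of Y boxes follow in the same order in both genes, with H2-Q7 shifted towards the start site.

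With interferon-gamma alone, all 5 genes were higher than in untreated construct cells by the authors' calls, where 25.7% of listed genes were called higher and 24.5% lower. The folds of their main entries in the authors' deposited table spanned 4.22 to 17.1 with a median of 5.50, and the median of all entries called higher was 3.12 in the authors' deposited table. The main entry of a gene is the one with the highest summed FPKM. The 5 genes were chosen with earlier results of these data known. Their count and folds beside those of listed genes are therefore a description and cannot serve as a test. The samples are bulk RNA, so more responding cells and more RNA per cell cannot be told apart. Over levels rather than calls, the median ratio of interferon-gamma to untreated was 5.51 for the 5 main entries and 1.57, or 0.65 on the log2 scale, over the 3846 entries with a level in both groups and at least 1 FPKM in one. Of these entries 1755 were at least 2-fold higher, 1518 at least 2-fold lower and 573 less than 2-fold apart. They are listed for having changed, so their median depends on that selection and is no measure of a shift of all genes. With levels divided by it all the same, the 5 genes stayed above 2-fold.

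Nlrc5, the class I transactivator, was measured by a coding entry of 7578 nt. It stood at 50.0 FPKM with both treatments, 27.5 with interferon-gamma alone, 2.77 with doxycycline alone and 2.91 in untreated construct cells, and at 2.82 with doxycycline and 2.67 without in parental cells. The 4 groups without interferon-gamma lay within 1.09-fold of each other, and both stimulated groups stood far above them. The authors' deposited table gave 9.45-fold higher Nlrc5 with interferon-gamma alone than in untreated construct cells (q = 0.000387). With doxycycline present on both sides it gave 18.0-fold (q = 0.000387). Against any of the 4 groups without interferon-gamma the fold in the authors' deposited table was 17.2 to 18.8 for both treatments and 9.45 to 10.3 for interferon-gamma alone.

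A second Nlrc5 entry, annotated as a retained intron of 1727 nt, was lower in every group. It was at 20.2 FPKM with both treatments, 12.7 with interferon-gamma alone, 1.83 with doxycycline alone and 0.982 in untreated construct cells, and at 1.44 with doxycycline and 0.712 without in parental cells. In the authors' deposited table it was 12.9-fold higher with interferon-gamma alone than in untreated construct cells (q = 0.00109) and 11.1-fold higher with both treatments than with doxycycline alone (q = 0.000387). Its share of the 2 entries' summed FPKM was 28.8% with both treatments, 31.6% with interferon-gamma alone, 39.7% with doxycycline alone and 25.2% in untreated construct cells, and 33.8% with doxycycline and 21.1% without in parental cells. The share was thus higher in each unstimulated group with doxycycline than in its counterpart without, in both lines. Its level was 1.86 times as high with doxycycline in unstimulated construct cells and 2.02 times in parental cells, and neither pair has a row. Of its 50-base runs 79.0% also occur in the coding entry, so how reads were shared between the entries affects both levels.

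Tapbpl, which encodes TAPBPR, a tapasin-related chaperone that edits the peptides of class I molecules, had the largest folds among the main entries of the 5 genes. Its coding entry of 2352 nt was at 76.7 FPKM with both treatments, 45.5 with interferon-gamma alone, 3.50 with doxycycline alone and 2.66 in untreated construct cells, and at 3.16 with doxycycline and 3.12 without in parental cells. The unstimulated groups lay within 1.32-fold of each other. The authors' deposited table gave 17.1-fold with interferon-gamma alone over untreated construct cells (q = 0.000387) and 21.9-fold with both treatments over doxycycline alone (q = 0.000387). By fold, Tapbpl ranked 91 of 1414 genes with an entry called higher with interferon-gamma alone, and Nlrc5 ranked 164. H2-T10 ranked 294, H2-Q7 350 and H2-Q4 427 in the same order.

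H2-Q4, a class Ib heavy chain gene, was the most abundant of the 5. Its coding entry of 1793 nt was at 236 FPKM with interferon-gamma alone, 59.4 with doxycycline alone and 55.9 in untreated construct cells, and at 50.7 with doxycycline and 53.9 without in parental cells. The 4 unstimulated groups were within 1.17-fold of each other, and the stimulated group was 4.22-fold above untreated construct cells in the authors' deposited table (q = 0.000387). The gene has no row with the group given both treatments, so its level there is not known from these rows. The same holds for 188 of the 1785 entries higher with interferon-gamma alone, or 10.5%, and for 30 of the 156 such entries at 100 FPKM or more, or 19.2%. A retained-intron entry of H2-Q4 (2596 nt) had a single row, at 7.26 FPKM with interferon-gamma alone, against 2.51 in untreated parental cells. That row carried the largest q of the 5 genes' 55 rows, 0.0455, in the authors' deposited table.

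H2-Q7 encodes a heavy chain of the Qa-2 antigen, a class Ib molecule anchored to the membrane by a lipid. Its coding entry of 1523 nt was at 10.2 FPKM with both treatments, 9.10 with interferon-gamma alone, 2.30 with doxycycline alone and 1.87 in untreated construct cells, and at 1.85 with doxycycline and 1.43 without in parental cells. The stimulated groups stood close together and above all others, which spanned 1.61-fold. The authors' deposited table gave 4.85-fold with interferon-gamma alone over untreated construct cells and 4.41-fold with both treatments over doxycycline alone (q = 0.000387 for each).

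H2-T10 encodes a class Ib molecule of the T region that presents no peptide and is known as a ligand of gamma-delta T cells. It had the lowest levels of the 5. Its coding entry of 1481 nt was at 4.45 FPKM with both treatments, 3.65 with interferon-gamma alone, 0.838 with doxycycline alone and 0.663 in untreated construct cells, and at 0.936 with doxycycline and 0.478 without in parental cells. The unstimulated groups spanned 1.96-fold, the widest range of the 5 main entries, at levels below 1 FPKM. The authors' deposited table gave 5.50-fold with interferon-gamma alone over untreated construct cells (q = 0.000387) and 5.32-fold with both treatments over doxycycline alone (q = 0.00455).

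Other H2-T10 entries were called in the same direction. A retained-intron entry (3389 nt) was 4.90-fold higher with interferon-gamma alone than in untreated construct cells and 7.64-fold higher with both treatments than with doxycycline alone in the authors' deposited table (q = 0.000387 for each). It was at 2.90 FPKM with both treatments, 2.07 with interferon-gamma alone and between 0.247 and 0.423 in the groups without interferon-gamma. An entry annotated as a polymorphic pseudogene (1699 nt) was at 1.38 FPKM with both treatments, 1.52 with interferon-gamma alone and 0.447 in untreated construct cells, and was 3.42-fold higher with interferon-gamma alone than in untreated construct cells in the authors' deposited table (q = 0.0203), the smallest fold of the 8 entries called there.

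**Figure D2:**
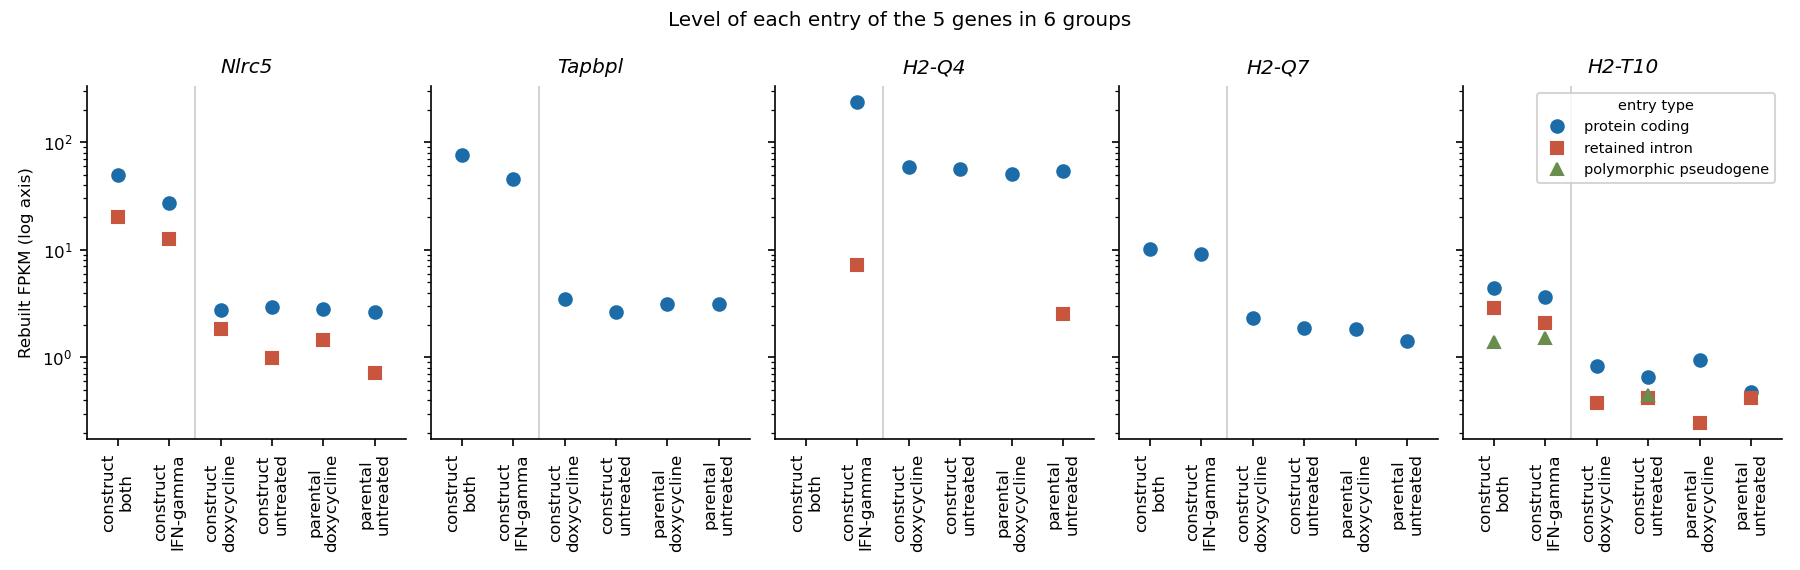
Rebuilt FPKM (log axis) of every entry of the 5 genes in the 6 groups, with both stimulated groups left of the grey line in each panel. A point is 1 group value of the authors with no error, its shape and colour give the annotated type of the entry, and a missing point means that no row gives a level. All points left of the line lie above those of the same entry to the right of it.

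The levels and ranks of the 3 heavy chain genes rest on sequence that they share with relatives. Of the 50-base runs of the coding transcript, 42.9% of those of H2-T10, 34.9% of H2-Q7 and 24.3% of H2-Q4 also occur in transcripts of another gene in the GENCODE M21 annotation, mainly H2-T22 for H2-T10 (40.2%) and H2-Q6 for H2-Q7 (19.3%). The share was 3.52% for Tapbpl and 0 for Nlrc5. At 100 bases it was 11.8% for H2-T10, 16.4% for H2-Q7, 2.66% for H2-Q4 and 0.0888% for Tapbpl. H2-Q4 and H2-Q7 transcripts were 65.2% identical, H2-Q7 and H2-T10 60.8%, and H2-Q4 and H2-T10 55.5%. RAW264.7 cells come from BALB/c mice of the H-2d haplotype while the reference is C57BL/6, so the sequence of these genes can also differ between cells and reference. How the authors assigned shared reads is not given in the sources used here, and the split of signal between heavy chain genes is uncertain.

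With both treatments, 4 of the 5 genes were higher than with doxycycline alone, where 33.7% of listed genes were called higher and 34.0% lower. They were Nlrc5, Tapbpl, H2-Q7 and H2-T10. Here too the genes were chosen with earlier results known, and the count is a description. H2-Q4 has no row with the group given both treatments, so its response there is not known. The median ratio of levels of the 4 called genes was 9.79 over their main entries. That of 4706 entries with both levels was 2.02, or 1.02 on the log2 scale. Of these entries 2392 were at least 2-fold higher and 2111 at least 2-fold lower, with only 203 between, so this median falls at the edge of the higher ones and is no measure of a shift of all genes either. After rescaling by it, the log2 folds were 3.44 for Tapbpl, 3.16 for Nlrc5, 1.39 for H2-T10 and 1.12 for H2-Q7. The share of higher calls among all called genes was 49.8% as deposited and 28.0% after rescaling. For interferon-gamma alone these shares were 51.3% and 33.7%, and the rescaled log2 folds were 3.45 for Tapbpl, 2.59 for Nlrc5, 1.81 for H2-T10, 1.63 for H2-Q7 and 1.43 for H2-Q4. Both treatments against untreated construct cells gave 4 higher genes again, at 28.8-fold for Tapbpl, 17.2-fold for Nlrc5, 6.72-fold for H2-T10 and 5.42-fold for H2-Q7 in the authors' deposited table, where 33.8% of listed genes were called higher.

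**Figure D3:**
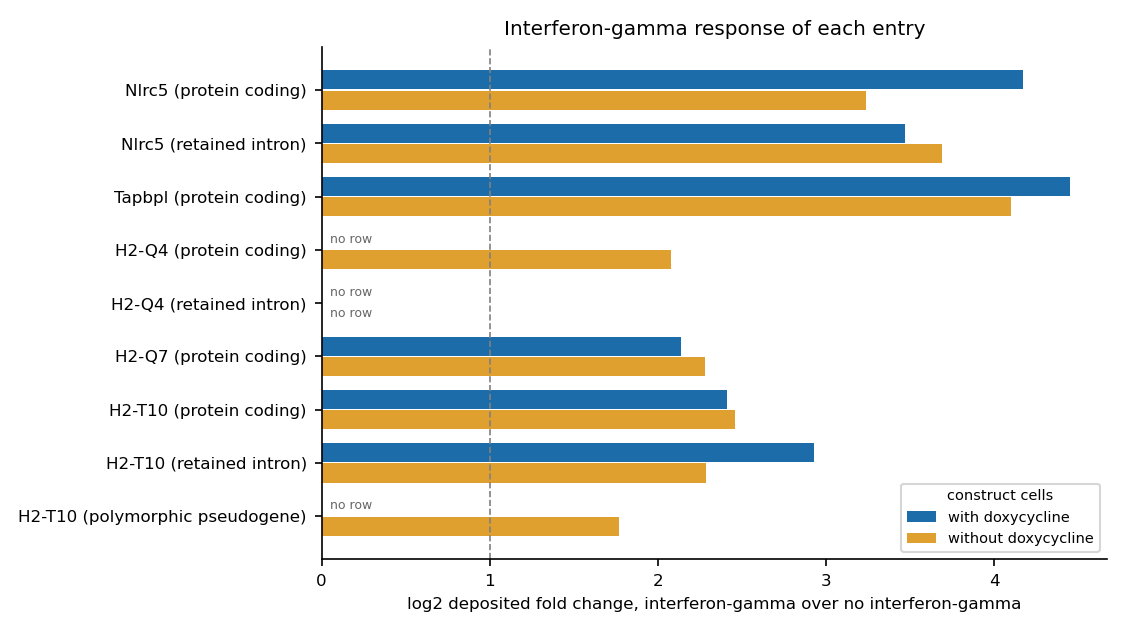
Log2 of the authors' deposited fold change with interferon-gamma over without, for each entry, in construct cells with doxycycline (upper bar of each pair) and without (lower bar). The dashed line is the 2-fold limit of the table, and entries without a row are marked. Tapbpl and Nlrc5 had the longest bars, and the coding entry of Nlrc5 differed most between the conditions, at 4.17 with doxycycline and 3.24 without.

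The responses with and without doxycycline come from comparisons that share no group. The coding entry of Nlrc5 had a log2 fold of 4.17 with doxycycline and 3.24 without, a difference of 0.93, and its retained-intron entry one of 3.47 and 3.69, a difference of -0.22. For Tapbpl the values were 4.45 with and 4.10 without doxycycline, which differ by 0.36. The difference was -0.14 for H2-Q7, -0.05 for the coding entry of H2-T10 and 0.64 for its retained-intron entry. The median difference over the 1414 entries called higher in both comparisons was 0.37, and 13.0% of them had a larger one than the coding entry of Nlrc5. None of these differences was tested, since no values per sample were at hand.

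The question the series title poses, how CITED1 alters interferon-gamma-stimulated expression, is read here from both treatments against interferon-gamma alone. The pair differs in doxycycline, and without stimulated parental cells an effect of doxycycline and one of CITED1 cannot be told apart. Cited1 was also at 11.5 FPKM with interferon-gamma alone. None of the 5 genes had a row in this comparison, where 13.2% of listed genes were called in either direction, 6.84% higher and 6.34% lower. For H2-Q4 no level with both treatments is known. The ratio of rebuilt levels was 1.82 for the coding entry of Nlrc5, at 50.0 with both treatments and 27.5 FPKM with interferon-gamma alone. It was 1.59 for its retained-intron entry and 1.69 for Tapbpl. H2-T10 had a ratio of 1.22, its retained-intron entry 1.40 and its pseudogene entry 0.907, and H2-Q7 had 1.12. These ratios are below the 2-fold limit of the table and carry no test, so they show neither a change nor its absence.

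Over 3859 entries with a level in both groups, the median ratio was 1.07, and over the 1567 of them called higher with interferon-gamma alone it was 1.29. A ratio above that of Nlrc5 was found in 14.7% of the 3859 entries, above that of Tapbpl in 17.6% and above that of H2-Q7 in 45.8%. Among the 1567 entries called higher with interferon-gamma alone these shares were 16.5% for Nlrc5, 22.1% for Tapbpl and 67.3% for H2-Q7, so that H2-Q7 lay above the middle of all entries and below the middle of the induced ones. The coding entry of H2-T10 was exceeded by 37.5% of all entries and by 55.5% of the induced ones. The 4 main entries had a median of 1.43. The entries compared have at least 1 row somewhere in the table, which favours entries that changed.

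**Figure D4:**
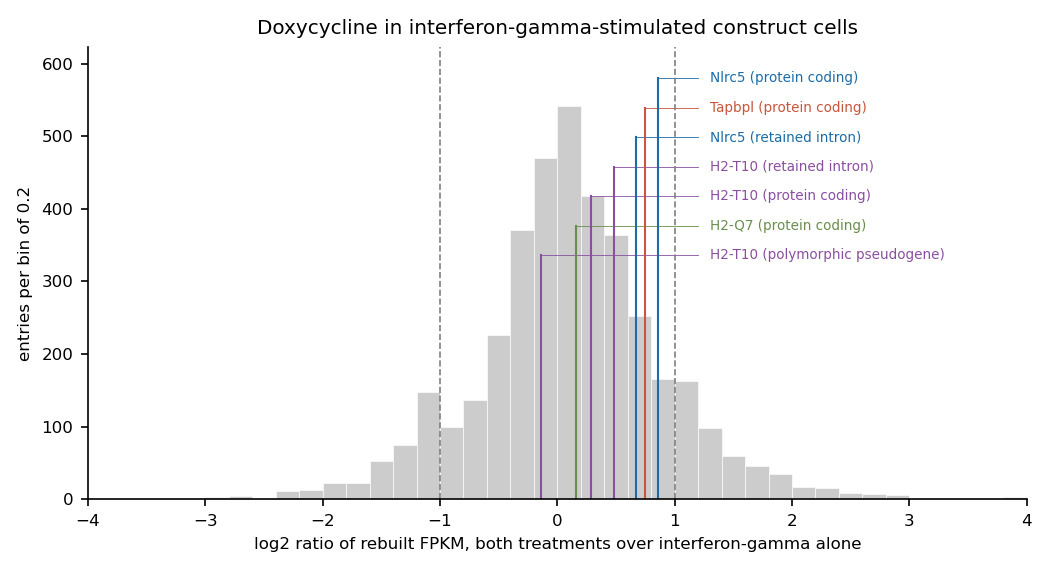
Distribution of the log2 ratio of rebuilt FPKM, both treatments over interferon-gamma alone, over 3859 entries (grey bars, entries per bin of 0.2), with the entries of the 5 genes as coloured lines. The height of a line only makes room for its name, and dashed lines mark the 2-fold limit of the table. All 7 lines lie between the limits, and the rightmost is the coding entry of Nlrc5 at 0.86.

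Without interferon-gamma no call was made for any of the 5 genes. With doxycycline in unstimulated construct cells 0.403% of listed genes were called in either direction and none of the 5. The ratio of levels, doxycycline over untreated, was 0.954 for the coding entry of Nlrc5, 1.32 for Tapbpl, 1.06 for H2-Q4, 1.23 for H2-Q7 and 1.26 for H2-T10, while Cited1 was 239-fold higher in the authors' deposited table. With doxycycline in parental cells 0.898% of listed genes were called and none of the 5, with ratios of 1.06 for Nlrc5, 1.01 for Tapbpl, 0.940 for H2-Q4, 1.29 for H2-Q7 and 1.96 for H2-T10. In construct against parental cells 4.49% of listed genes were called without doxycycline and 5.61% with it, again none of the 5. Across all pairs of groups and entries, 135 combinations in all, the 55 with a row each set a stimulated against an unstimulated group. Only the retained-intron entry of Nlrc5 had levels 2-fold or more apart without a row, in 2 pairs, parental cells with against without doxycycline and construct cells with doxycycline against untreated parental cells (2.57 times as high).

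The other genes of the pathway were taken from 6 lists with 80 genes, 37 of which had a row. Of the 75 that are not among the 5 genes, 22 were higher and 1 lower with interferon-gamma alone, and 23 were higher and 3 lower with both treatments over doxycycline alone. With both treatments over interferon-gamma alone, 1 was higher (1.33% of the 75) and 2 lower (2.67%). Of listed genes 6.84% were called higher and 6.34% lower in that comparison. With interferon-gamma alone the higher genes were 29.3% of the 75 and the lower gene 1.33%. Of listed genes 25.7% were called higher and 24.5% lower there. With both treatments over doxycycline alone the higher genes were 30.7% of the 75 and the lower ones 4.00%. Of listed genes 33.7% were called higher and 34.0% lower there. The lists, unlike the listed genes, include genes without any row, 43 of the 80. The shares of the 75 and of listed genes thus have unlike bases, and their nearness or distance has no meaning. The lists were written with earlier results of these data known, and the counts here and in each list below are a description.

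Of 27 heavy chain genes and relatives, 11 had a row, and 8 were higher and 1 lower with interferon-gamma alone, by the authors' calls. H2-K1, H2-D1 and B2m, the beta-2-microglobulin gene, had no row under a single gene name, which leaves their response unknown. The 5 higher genes outside the members were H2-Q1, H2-Q2, H2-Q6, H2-Q10 and H2-T3. H2-Q6, close in sequence to H2-Q7, was at 115 FPKM with both treatments, 91.4 with interferon-gamma alone, 24.9 with doxycycline alone and 22.8 in untreated construct cells. H2-T3, the thymus leukaemia antigen gene, was listed through an entry annotated for nonsense-mediated decay, at 83.4 FPKM with both treatments, 61.7 with interferon-gamma alone, 19.0 with doxycycline alone and 20.5 in untreated construct cells. Hfe, a class I-like protein that controls iron uptake, was the gene called lower, at 1.13 FPKM with interferon-gamma alone, against 4.92 in untreated construct cells. With both treatments over interferon-gamma alone, a locus entry of H2-Q2 was 2.56-fold higher (q = 0.0401) in the authors' deposited table, at 193 FPKM with both treatments, against 75.2 with interferon-gamma alone. The coding H2-Q2 entry was at 28.7 FPKM with both treatments, against 19.4 with interferon-gamma alone, a ratio of 1.48 without a row. An entry of Mr1 annotated for nonsense-mediated decay was 2.23-fold lower (q = 0.0235) in the authors' deposited table; the gene encodes a molecule that presents vitamin metabolites. This entry was at 1.28 FPKM with both treatments, against 2.85 with interferon-gamma alone. Fcgrt, the neonatal Fc receptor gene, was 3.99-fold higher in construct than in parental cells when both had doxycycline, in the authors' deposited table.

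Genes that supply peptides were called in one direction. Of 8 immunoproteasome and activator genes 4 had a row, and all 4 were higher in both responses. The other 4, Psmb8, Psmb9, Psme3 and Psme4, had no row under a single gene name, which leaves their response unknown. Psme1, a subunit of the PA28 activator, was at 453 FPKM with both treatments and 339 with interferon-gamma alone, against 79.3 in untreated construct cells. Its partner Psme2 was at 480 FPKM with both treatments and 320 with interferon-gamma alone, against 95.3 in untreated construct cells. Psmb10, an inducible catalytic subunit, was at 172 FPKM with both treatments and 118 with interferon-gamma alone, against 32.6 in untreated construct cells. Pomp, the proteasome assembly chaperone, was at 261 FPKM with both treatments and 184 with interferon-gamma alone, against 74.3 in untreated construct cells. Of 14 genes of the constitutive core, 3 were higher with interferon-gamma alone by the authors' calls, namely Psma3, Psma5 and Psmb7. Psma3 was called there only through an entry annotated for nonsense-mediated decay and a retained-intron entry. They were 2.70-fold and 2.25-fold higher in the authors' deposited table. With both treatments over doxycycline alone, 6 genes of the core were higher by the authors' calls. Of 9 genes of peptide transport and loading 2 had a row, Tapbpl and Lnpep. Tap1, Tap2 and Tapbp were among those with none under a single gene name, and their response is unknown. Lnpep, an aminopeptidase, was at 58.5 FPKM with both treatments and 39.4 with interferon-gamma alone, against 17.6 in untreated construct cells.

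The transactivators and the factors they join did not share a direction. Of 10 genes, Nlrc5 was the only one called higher with interferon-gamma alone. Creb1, a factor of the X2 box, was 2.88-fold lower and Nfya, a subunit of the Y box factor NF-Y, 2.25-fold lower with both treatments than with doxycycline alone in the authors' deposited table. Creb1 was at 3.01 FPKM with both treatments, against 8.67 with doxycycline alone, and Nfya at 5.78 with both treatments, against 13.0 with doxycycline alone. Ciita, the class II transactivator, was 2.53-fold lower with both treatments than with interferon-gamma alone (q = 0.0154) by the authors' deposited table, at 1.14 FPKM with both treatments, against 2.88 with interferon-gamma alone. Nlrc5 has no row in that pair.

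Of 12 genes on the interferon-gamma pathway to Nlrc5, 9 had a row and were higher with interferon-gamma alone, and 7 were higher with both treatments over doxycycline alone. Jak2, a kinase of the receptor, was at 92.7 FPKM with both treatments and 54.5 with interferon-gamma alone, against 6.69 in untreated construct cells. Jak1, its partner, was at 81.1 FPKM with both treatments and 67.8 with interferon-gamma alone, against 33.1 in untreated construct cells. Socs1, the feedback inhibitor of these kinases, was at 140 FPKM with both treatments and 95.9 with interferon-gamma alone, against 0.203 in untreated construct cells. The ratio of levels, both treatments over interferon-gamma alone, was 1.70 for Jak2 and 1.46 for Socs1, beside the 1.82 of Nlrc5 and 1.69 of Tapbpl. Among heavy chain genes it was 1.80 for the coding entry of H2-Q1 and 1.25 for H2-Q6.

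**Figure D5:**
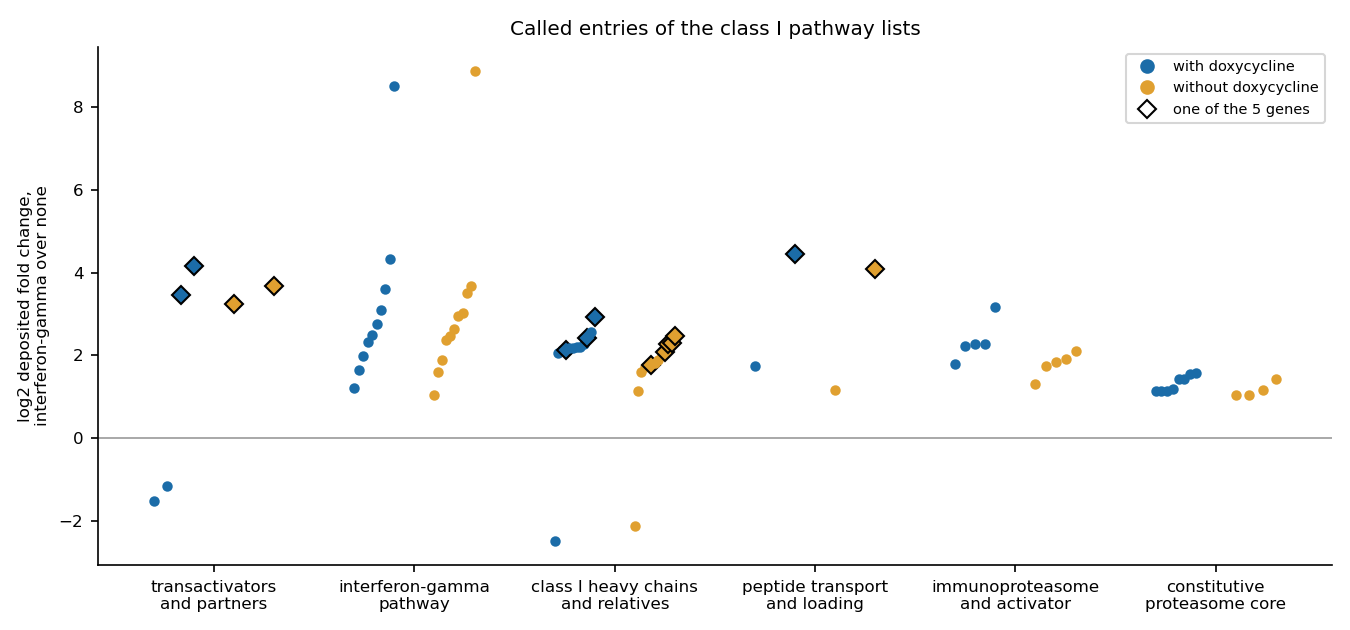
Log2 of the authors' deposited fold change with interferon-gamma over without, for the called entries of the 6 lists that are shown, in construct cells with doxycycline (blue) and without (orange), with diamonds for the entries of the 5 genes. Points above 0 are higher with interferon-gamma. Tapbpl leads the transport and loading list and Nlrc5 the transactivator list, and the highest points of the pathway list are Socs1.

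Genes whose levels over the groups were most like those of the 5 were sought by the root mean square difference of centred log2 levels over 3003 entries with a level in all 6 groups. Nearest to Nlrc5 was Trib1, a pseudokinase gene, at 0.104, followed by Parp3 at 0.130 and Zfp36, an mRNA decay factor, at 0.143. Trib1 was at 32.0 FPKM with both treatments and 16.6 with interferon-gamma alone, against 1.42 to 1.67 in the other groups. Nearest to Tapbpl were Procr at 0.164, Ccl6 at 0.189 and Arid5a at 0.213. H2-Q7 had Atp11b at 0.124, Dst at 0.131 and Inpp4a at 0.135, and H2-T10 had Nlgn2 at 0.133, Stat3 at 0.201 and H2-Q7 at 0.204. For H2-Q4, with levels in 5 groups and 3195 entries compared, these were Dusp1 at 0.034, Rnf135 at 0.041 and H2-Q6 at 0.049. The group left out is that with both treatments, so these distances are not comparable with those of the other genes. In that group Dusp1 was at 47.3 FPKM, Rnf135 at 34.9 and H2-Q6 at 115. With interferon-gamma alone they were at 18.1, 17.0 and 91.4. All these entries share the same libraries, and the likeness is a description of group values.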

How the data were processed

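Per the labels' protocols, poly(A) RNA of RAW264.7 cells went into directional libraries. The submitters' processing notes list Cuffdiff 2.2.1, edgeR, featureCounts, STAR 2.5.3a and FastQC 0.11.5 with no roles; for build, annotation and scaling the sources used here name none. The deposited Cuffdiff table of the authors holds, per the file headers, a fold change as a linear ratio, its direction, an FPKM summed over 2 groups and a q-value (an adjusted p-value). Of 112230 rows, 77406 name a group outside the 6 used and were left out; the 34824 others cover 15 pairs, 7315 entries and 5455 named genes, with a smallest fold of 2.00, a largest q of 0.0499 and 71.8% of rows at the smallest q, 0.000387.

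The lower level was rebuilt as the sum divided by 1 plus the fold, the higher as that times the fold, then the median over rows (python 3.11.15, pandas 2.3.3); 17763 repeated levels differed by a median of 0.0652%. The rebuilding was tested on simulated data. Tests over samples had been planned; the deposited table has no values per sample, so all calls are the authors' and no test was run. Entry types and lengths are from GENCODE M21, promoters from RefSeq. A gene counts in a direction when every called entry of it goes that way. The 36 entries with more than 1 gene name were not counted under any gene, so a gene without a row may be listed there. The 5 genes, all their entries and every called gene of the lists could be named, with the 3 nearest by pattern; genes and lists were chosen with earlier results of these data known. Some results are not given here. The alternatives tried were main entries only, levels summed over the entries of a gene, levels rescaled to a median log2 ratio of 0, a pseudocount of 1 FPKM with 1.5-fold, calls with at least 1 FPKM and calls at a q up to 0.01.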

Additional observations from a re-analysis of the deposited data

How the results depend on the processing

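In the 3 comparisons with calls of the 5 genes, the counts were equal to those as deposited under all 15 alternatives. In the other 5 the count is 0 and the 25 alternatives could not have changed it, since they filter or rescale listed rows. All 39 log2 folds of single genes under an alternative were past their limit in the same direction, with 0 reversed. Levels were summed only over entries of a gene with a level in both groups. For Tapbpl, H2-Q4 and H2-Q7 this left the main entry only, so the summed value equals the deposited one and could not have differed. Over all listed genes the counts moved more. With the listed entries' median log2 ratio set to 0, a median that depends on their selection, genes called higher were 682 in place of 1404 with interferon-gamma alone, 723 in place of 1837 with both treatments over doxycycline alone, and 725 in place of 1846 with both treatments over untreated construct cells, where the share of higher calls was 27.9% in place of 49.7%. At a q of 0.01 or less, doxycycline in parental cells had 25 calls in place of 49 and doxycycline in unstimulated construct cells had 13 in place of 22. Leaving out single replicates was not run, since the rows hold group values only. No paired analysis was possible because the deposited rows carry no values per sample. Depth is unknown, so how far it limits the low levels of H2-T10 cannot be stated.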

Other observations

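Other genes of the H2 region that stand in none of the lists were looked at after their values had been seen. The class I genes and pseudogenes H2-Q5, H2-K2 and H2-T-ps were higher with interferon-gamma alone than in untreated construct cells. H2-T-ps was at 6.82 FPKM with both treatments and 6.09 with interferon-gamma alone, against 0.944 with doxycycline alone and 0.761 in untreated construct cells. In the authors' deposited table the fold with interferon-gamma alone was 3.42 for H2-K2 and 3.58 for the annotated H2-Q5 entry.

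Class II genes, which serve presentation to CD4+ T cells, had few rows. In the authors' deposited table H2-DMb2, a chain of the peptide editor H2-DM, was 36.6-fold higher with interferon-gamma alone, at 10.5 FPKM, against 0.287 in untreated construct cells. The authors' deposited table gave H2-Ob, a chain of the H2-DM inhibitor H2-O, as 4.75-fold lower with both treatments than with interferon-gamma alone, at 0.586 and 2.78 FPKM. H2-DMa was at 27.9 FPKM with both treatments and 37.3 with interferon-gamma alone, and has no row between them.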
